A study of Mus musculus with 8 samples.

Results

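Oligodendrocyte progenitor cells (OPCs) of the prefrontal cortex (PFC) were compared with those of the striatum. The OPCs were the cells that the authors' deposited annotation names OPC, 2778 of 23687 annotated cells, with 1337 of 8997 cells in the PFC and 1441 of 14690 in the striatum. The cells came from 8 single-cell RNA sequencing libraries, and each tissue had 2 wild-type (WT) and 2 Setd1a+/- libraries. Setd1a+/- mice carry a frameshift made with CRISPR-Cas9 in 1 of the alleles of *Setd1a*, which encodes a histone H3 lysine 4 methyltransferase and is linked to schizophrenia. All mice were male C57BL/6N, aged 8 to 10 weeks by the labels, while the study's methods give another age for the single-cell mice. Tissue of 2 mice was pooled in each library, so the spread between libraries is not the spread between single mice and may be partly technical. The labels call the striatal tissue NAc (nucleus accumbens), and the study's methods describe a wider piece of striatum, so it is called striatum here. The methods also give the striatum a longer enzymatic digestion than the PFC, so tissue and preparation cannot be told apart.

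OPCs are the dividing glial cells that give rise to myelinating oligodendrocytes and that persist in the adult brain. They carry the PDGF receptor alpha (*Pdgfra*) and the proteoglycan NG2 (*Cspg4*), receive synapses from neurons, and make much of the chondroitin sulfate matrix around them. In the embryonic forebrain they arise in waves, from ventral regions that also give rise to striatal neurons and later from the dorsal wall that gives rise to cortical neurons.

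The OPC label was checked against 10 marker genes (*Pdgfra*, *Cspg4*, *Vcan*, *Olig1*, *Olig2*, *Sox10*, *Ptprz1*, *Lhfpl3*, *C1ql1* and *Tnr*). Between 94.7 and 99.5% of the OPCs of a library had UMIs (unique molecules of RNA counted) of at least 3 of them. *Pdgfra* was counted in 66.1 to 91.7% of the OPCs of the PFC libraries and in 67.4 to 77.2% of those of the striatum libraries. Among microglia, which should lack it and had median UMIs of 1980 to 2748.5 per cell, the share was 0 to 8.75%. After each OPC was thinned to 1000 UMIs, *Pdgfra* was counted in 55.8 to 74.0% of PFC and 50.7 to 57.02% of striatal OPCs.

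The OPCs of a library held 162197 to 788556 UMIs in all, so that 3 UMIs, the most that a count of 0 allows, correspond to 3.804 to 18.5 CPM (the UMIs of a gene for every 1000000 UMIs of the same cells). The shallowest sum was that of the striatum Setd1a+/- library of replicate 2, with 114 OPCs. The PFC libraries of replicate 1 and of replicate 2 differed from each other: of 4007 genes with at least 200 UMIs, 15 were at least 4-fold lower in both PFC libraries of replicate 1 than in both of replicate 2, and 0 were higher. In the striatum these numbers were 1 and 4. Results that rest on these libraries are given with and without them. Only 2 of 2776 OPC barcodes occurred in more than 1 library.

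OPCs made up a larger share of the annotated cells in the PFC. Their share was 12.9 and 16.7% in the WT and 16.1 and 13.3% in the Setd1a+/- libraries of the PFC, against 11.1 and 9.68% and 11.9 and 4.57% in the striatum. The groups did not overlap, with means of 14.7 ± 1.91% and 9.31 ± 3.29% (SD, n = 4 each), and the exact permutation test over libraries (two-sided) gave p = 0.0286, the smallest that 4 against 4 libraries allow. The test treats the 8 libraries as independent. The methods make each biological replicate of 1 WT and 1 Setd1a+/- sample, so this p may be too small. The 95% Wilson interval, which covers counting error only, reached from 3.82 to 5.46% in the lowest library and from 15.3 to 18.1% in the highest. Within the oligodendrocyte lineage (OPCs, newly formed oligodendrocytes and oligodendrocytes) no such difference was detected, as OPCs were 40.7 ± 8.69% of it in the PFC and 41.2 ± 10.9% in the striatum (exact permutation test, two-sided, p = 0.943). A share of recovered cells also moves with how well each cell type survives dissociation, whose part in it was not tested.

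The depth per OPC overlapped between the tissues. The median OPC had 1919, 1658, 1403 and 1796 UMIs in the PFC libraries (in the order WT 1, WT 2, Setd1a+/- 1 and Setd1a+/- 2, which is kept throughout) and 1580.0, 1729, 1675 and 1351 in the striatum libraries (exact permutation test, two-sided, p = 0.457). It had 1176, 1009, 907 and 1091 detected genes in the PFC and 1005, 1070.0, 1035 and 873 in the striatum (exact permutation test, two-sided, p = 0.486).

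UMIs were then summed over the OPCs of each library, and 7612 genes were tested between the tissues with genotype as covariate. Of these, 12 differed at a false discovery rate (FDR) under 0.05 and by more than 1.5-fold, which is 0.158%, with 9 higher in the striatum (0.118%) and 3 higher in the PFC (0.0394%). At an unadjusted p under 0.05, 1047 genes (13.8%) differed. The methods make each biological replicate of 1 WT and 1 Setd1a+/- sample, and the deviations of same-numbered libraries from the group means correlated within a tissue (0.40 in the PFC and 0.35 in the striatum, across 4007 genes). When the genotypes of each replicate were summed, leaving 2 PFC against 2 striatum sums, *Six3*, *Penk* and *Nrn1* remained called and the other 9 genes did not, with FDR values from 0.0697 for *Tac1* and *Ppp1r1b* to 0.409 for *S100a6* and *Pfn1*. *Sdf2l1* then had an FDR of 0.262, *Snx22* of 0.215 and *Adora2b* of 0.271. The 12 genes are a forebrain patterning factor (*Six3*), 6 genes on none of the neuron lists (*Snx22*, *Adora2b*, *S100a6*, *Sdf2l1*, *Plekhb1*, *Pfn1*) and 5 genes of neurons (*Penk*, *Ppp1r1b*, *Cartpt*, *Tac1*, *Nrn1*). Of these 5, *Cartpt* and *Nrn1* are on none of the neuron lists either. Free RNA, which leaks from broken cells into every droplet, was measured in the barcodes of 1 to 50 UMIs of each library. For each gene the CPM in OPCs was divided by its CPM in these barcodes, and a gene that OPCs hold themselves should have a high ratio. The markers of the projection neurons of each tissue gave ratios of 0.0218 to 0.0823 in the PFC and 0.0405 to 0.108 in the striatum.

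*Six3* (ENSMUSG00000038805, chr17:85613608-85629302 in GRCm38) encodes a homeodomain factor of the ventral forebrain and is used by developing striatal neurons. It had 0 CPM in all 4 PFC libraries and 45.7, 32.1, 20.6 and 30.8 CPM in the striatum libraries. Over the tissues this was 0 UMIs against 79, at least 25.2-fold higher in the striatum when the PFC is set to 3 UMIs (edgeR, FDR = 0.00088). The groups did not overlap, and *Six3* stayed below an FDR of 0.05 without each library in turn (FDR 0.000555 to 0.00636), but not without both striatum libraries of replicate 1 (FDR = 0.0811). It was also in the free RNA of the striatum, at 40.0 to 49.4 CPM, and in none of the PFC. The OPC-to-free ratio of 0.416 to 1.14 was above that of the projection neuron markers in every striatum library but was not above the rule set for a gene of the OPCs, which asked for at least 2 times the highest ratio among 10 lists of other cell types. Striatal astrocytes had more of it, with 49.8 to 106 CPM, striatal oligodendrocytes had 2.14 to 12.6 CPM and endothelial cells 6.64 to 20.03 CPM, and each of the 3 types had 0 CPM in the PFC.

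*Snx22* (ENSMUSG00000039452, chr9:66065176-66069719) encodes a sorting nexin, a family of proteins that bind membrane phosphoinositides and sort endosomal cargo. Its level was 108, 90.0, 79.0 and 115 CPM in PFC OPCs and 194, 213, 244 and 160.3 CPM in striatal OPCs. Every striatum library was above every PFC library, and the gene was 2.17-fold higher in the striatum (log2 fold change 1.12 ± 0.18 SE, FDR = 0.0226). Its OPC-to-free ratio was 26.9 to 43.1 in the striatum, and it was nearly absent from astrocytes (0 to 4.08 CPM), oligodendrocytes (0 to 13.8 CPM) and endothelial cells (0 to 3.62 CPM). The call was lost without PFC WT 1 (FDR = 0.0737), striatum WT 1 (0.0637), striatum WT 2 (0.145) or striatum Setd1a+/- 1 (0.105).

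*Adora2b* (chr11:62248984-62266453) encodes the A2B adenosine receptor, which raises cyclic AMP. PFC OPCs had 144, 96.5, 188 and 99.1 CPM and striatal OPCs had 46.9, 42.4, 52.7 and 12.3 CPM. The groups did not overlap, and the gene was 2.91-fold higher in the PFC (log2 fold change -1.54 ± 0.27, FDR = 0.0310). The OPC-to-free ratio in the PFC was 14.2 to 21.9. Astrocytes also had more of it in the PFC, with 73.3 to 188 CPM against 21.2 to 75.4 CPM in the striatum (log2 fold change -1.29, FDR = 0.0122), while oligodendrocytes had at most 3.82 CPM. In OPCs the call was lost without PFC WT 1 (FDR = 0.119), striatum WT 1 (0.0889), WT 2 (0.152) or Setd1a+/- 1 (0.0885). Of 45 transmitter and neuropeptide receptors listed, 11 could be tested, and *Adora2b* was the single one called, where 0.0394% of all genes tested were called as higher in the PFC.

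*S100a6* (chr3:90612882-90624181), a small calcium-binding protein, was higher in PFC OPCs, with 433, 387, 665 and 431 CPM against 231, 234, 284 and 222 CPM in the striatum. The fold was 1.89 (log2 fold change -0.91 ± 0.17, FDR = 0.0425), and the ratio to free RNA in the PFC was 4.36 to 8.30. Astrocytes went the other way, with 147 to 263 CPM in the PFC and 377 to 452 CPM in the striatum (log2 fold change 0.96, FDR = 0.0079), and so did endothelial cells (log2 fold change 1.68, FDR = 0.0084). Oligodendrocytes showed no call (0.08, FDR = 0.89). The tissue difference of OPCs was lower than that of astrocytes by -1.86 ± 0.22 on the log2 scale, than that of oligodendrocytes by -0.96 ± 0.16 and than that of endothelial cells by -2.63 ± 0.26, and each of these differences between cell types was called in edgeR (FDR under 0.05). The call in OPCs alone was lost when any of 5 libraries was left out (FDR 0.104 to 0.174), namely PFC WT 1 or any of the 4 striatum libraries.

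**Figure D1:**
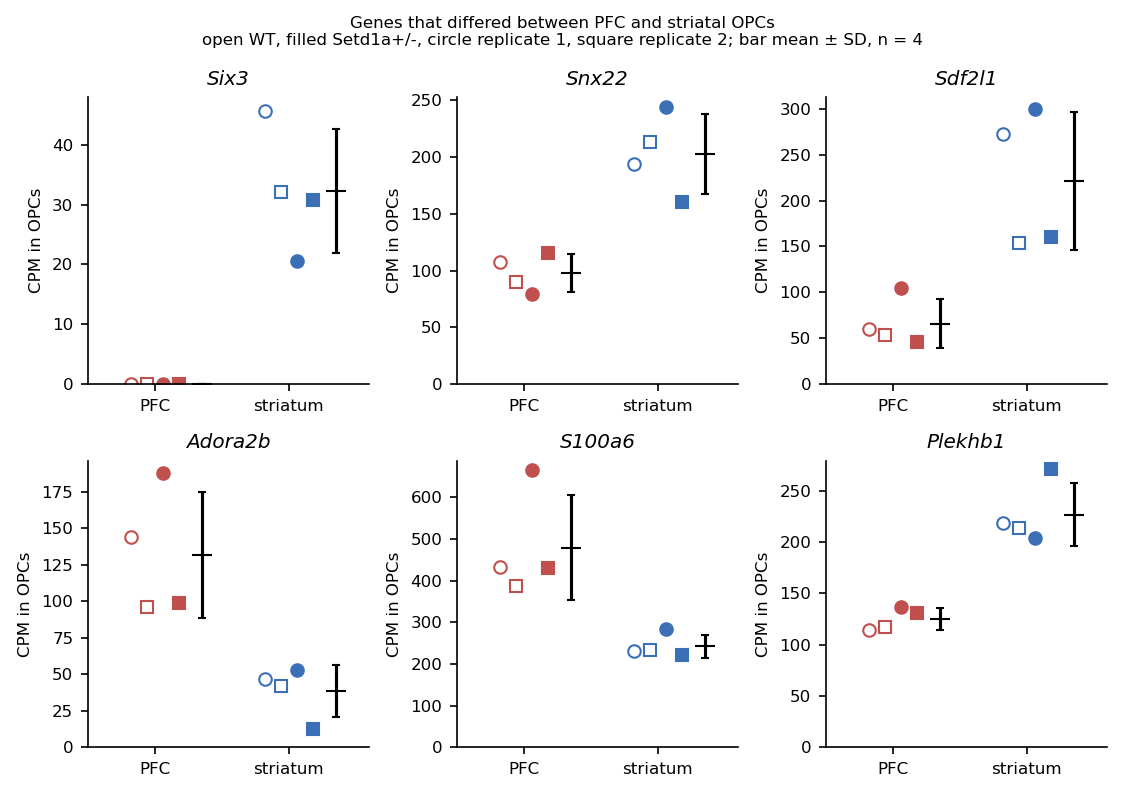
CPM of 6 called genes in the OPCs of each library (y axis, linear, from 0), with PFC in red and striatum in blue, open WT, filled Setd1a+/-, circles replicate 1 and squares replicate 2, and bars for the mean ± SD of 4 libraries. No gene overlaps between tissues; *Six3* is at 0 in all PFC libraries, and *Sdf2l1* is higher in the replicate 1 than in the replicate 2 libraries of the striatum.

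The next 3 genes were higher in the striatum in OPCs and also in astrocytes, oligodendrocytes and endothelial cells. *Sdf2l1* (chr16:17130138-17132383) encodes a subunit of a chaperone complex of the endoplasmic reticulum and belongs to the unfolded protein response. It had 60.0, 53.5, 105 and 45.5 CPM in PFC OPCs and 273, 153, 299 and 160.3 CPM in striatal OPCs. The groups did not overlap, and the gene was 3.55-fold higher in the striatum (log2 fold change 1.83 ± 0.26, FDR = 0.00529), with an OPC-to-free ratio of 5.61 to 10.1. Tested alone, astrocytes (1.87, FDR = 0.00848), oligodendrocytes (2.01, FDR = 0.00292) and endothelial cells (1.71, FDR = 0.00241) had a higher level in the striatum too. The difference between OPCs and these types was -0.09 to 0.15 on the log2 scale, with FDR values of 0.93 to 0.97 and standard errors of 0.24 to 0.57. Among omissions of a single library, the call was lost without striatum Setd1a+/- 1 (FDR = 0.0564), and it was also lost without both striatum libraries of replicate 1. *Hspa5*, the chaperone of the same compartment to which this complex binds, had 603, 292, 391 and 348 CPM in the PFC and 1007, 307, 1298 and 289.8 CPM in the striatum, high in both striatum libraries of replicate 1, and was not called (log2 fold change 0.89, FDR = 0.338).

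*Plekhb1* (chr7:100642892-100662414), a membrane protein with a pleckstrin homology domain, had 114, 117, 136 and 131 CPM in PFC OPCs and 218, 213, 204 and 271 CPM in striatal OPCs. It was 1.84-fold higher in the striatum (log2 fold change 0.88 ± 0.16, FDR = 0.0396) at an OPC-to-free ratio of 1.82 to 4.65. It was also higher in striatal astrocytes (1.01, FDR = 0.0095), oligodendrocytes (0.78, FDR = 0.0197) and endothelial cells (2.31, FDR = 0.0196), where the difference exceeded that in OPCs (-1.43, FDR = 0.0341). Endothelial cells had only 1.33 to 6.51 CPM in the PFC and 9.11 to 29.8 CPM in the striatum, below the free RNA (45.7 to 93.3 and 58.4 to 112 CPM). In OPCs *Plekhb1* lost its call without any of 6 libraries (FDR 0.0564 to 0.195), namely PFC WT 1, PFC Setd1a+/- 2 or any of the 4 striatum libraries. *Pfn1* (chr11:70651850-70654644), the actin monomer binding protein profilin, had 19.5, 74.3, 23.7 and 61.6 CPM in the PFC and 152, 394, 138 and 401 CPM in the striatum. It was 5.83-fold higher in the striatum (log2 fold change 2.54 ± 0.44, FDR = 0.0320), and in both tissues the replicate 2 libraries were above those of replicate 1. The free RNA held as much of it (OPC-to-free ratio 1.07 to 1.77), and the other 3 cell types had log2 fold changes of 2.32 to 2.65. Its call was lost without PFC WT 1 (FDR = 0.119), striatum WT 2 (0.152) or striatum Setd1a+/- 2 (0.0938).

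The last 5 called genes are genes of neurons. *Penk*, the enkephalin precursor of striatal projection neurons, had 1.499, 1.30, 1.97 and 0 CPM in PFC OPCs and 90.0, 167, 47.6 and 129 CPM in striatal OPCs, or 3 against 243 UMIs (ratio 77.7, exact 95% interval of the counts 26.3 to 379; FDR = 8.1e-05). *Ppp1r1b*, which encodes the dopamine signalling protein DARPP-32, had 3 against 141 UMIs (45.1, 15.1 to 221; FDR = 0.00072). *Cartpt*, a neuropeptide precursor, had 1 against 81 UMIs (77.7, 13.6 to 3105; FDR = 0.0087), and its call was lost without PFC WT 1 (FDR = 0.0540). In the striatum the ratios of these genes to free RNA were 0.0268 to 0.102, 0.0348 to 0.105 and 0.0288 to 0.212. *Penk* and *Ppp1r1b* are themselves on the striatal list of projection neuron markers, so their ratios and that of the list are not independent. *Nrn1*, a neuritin of cortical neurons, went the other way, with 24.0, 31.3, 45.4 and 29.5 CPM in the PFC and 1.27, 1.46, 0 and 0 CPM in the striatum (74 against 2 UMIs, 38.6, 10.3 to 325; FDR = 0.0007) at a ratio of 0.123 to 0.201 to the free RNA. This ratio was above that of the projection neuron markers in every PFC library (0.0218 to 0.0823) but not above the rule set for a gene of the OPCs. Of the lists of other cell types, that of medium spiny neurons, the projection neurons of the striatum, had 3 called genes (*Penk*, *Ppp1r1b* and *Tac1*) of 5 tested and 10 listed, where 0.118% of all genes tested were called as higher in the striatum, and the other 9 lists had 0. The summed level of that list in OPCs was 122 to 166 CPM in the PFC and 380.5 to 647 CPM in the striatum, and that of the excitatory neuron list was 30.0 to 179 and 27.0 to 73.0 CPM. The red cell list reached from 36.5 to 5027 CPM in the PFC and from 129 to 3472 CPM in the striatum.

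*Tac1*, the precursor of substance P, differed from those genes in the PFC. PFC OPCs had 70.5, 61.3, 79.0 and 69.6 CPM of it and striatal OPCs had 205, 183, 181 and 179 CPM (log2 fold change 1.46 ± 0.16, FDR = 0.00067). In the PFC the free RNA held only 6.39 to 23.9 CPM, so the OPC-to-free ratio there was 2.95 to 10.9. In the striatum the free RNA held 1287 to 1666 CPM, and the ratio was 0.123 to 0.142. After free RNA was taken from each library in proportion to the projection neuron markers of its tissue, the tissue difference was 0.33 on the log2 scale and was not called (FDR = 0.645). This subtraction was added after the values had been seen. The tissue difference was smaller in OPCs than in astrocytes (-4.10), oligodendrocytes (-1.31) and endothelial cells (-8.79), and each of these differences was called. In the PFC these types had 0 to 3.67, 2.86 to 25.5 and 0 CPM of *Tac1*. In the striatum they had 46.2 to 340, 58.6 to 245 and 61.7 to 359 CPM, all below the free RNA there. With 0 CPM in the PFC, the size of the fitted difference against endothelial cells is not a measured fold. The part of free RNA in these differences was not tested. The list used for the subtraction left out *Tac1* and *Pde10a*. With the same subtraction, *Six3*, *Sdf2l1* and *Snx22* remained called. *Adora2b* (-1.51, FDR = 0.0555), *S100a6* (-0.88, FDR = 0.0953), *Plekhb1* (0.90, FDR = 0.0821) and *Pfn1* (2.58, FDR = 0.0555) kept folds close to those without it and were not called, and the other 4 of the 12 genes had too few UMIs left to be tested. Of these 4, *Penk* and *Ppp1r1b* are on the list that set the amount taken off in the striatum, so their loss is not an independent result.

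The tissue difference of every gene was tested against that of 3 other cell types of the same libraries. Against astrocytes, 428 of 7825 genes (5.47%) had a difference that was not the same as in OPCs, 124 (1.58%) with OPCs further toward the striatum and 304 (3.88%) with OPCs further toward the PFC. Against oligodendrocytes, the mature cells of the lineage, there were 131 of 8798 (1.49%), with 84 (0.955%) toward the striatum and 47 (0.534%) toward the PFC. Against endothelial cells there were 563 of 9842 (5.72%), with 49 (0.498%) and 514 (5.22%). The counts against astrocytes and endothelial cells fell to 220 and 356 without PFC WT 1, and in cells thinned to 1000 UMIs the 3 counts were 73, 73 and 248. Against astrocytes the count was also 257 without PFC Setd1a+/- 2 and 270 without striatum Setd1a+/- 1. Of the 12 genes, *S100a6* was called further toward the PFC in OPCs than in all 3 types, *Tac1* was called against all 3 as less far toward the striatum, *Plekhb1* against endothelial cells alone and *Ppp1r1b* against astrocytes alone, and the other 8 were not called against any type. *Six3* was at 0 CPM in the PFC in each type, and *Snx22* was nearly absent from astrocytes. The test therefore could not tell whether the difference of *Six3*, or that of *Snx22* against astrocytes, is shared. Standard errors on the log2 scale were also large for *Penk* (0.94 to 1.85), *Cartpt* (1.33 to 1.78) and *Nrn1* (0.84 to 4.87). They were 1.23 for *Snx22* against endothelial cells and 0.95 for *Adora2b* against oligodendrocytes, where the other type had little of the gene. A missing call in these tests does not show that the difference is shared.

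**Figure D2:**
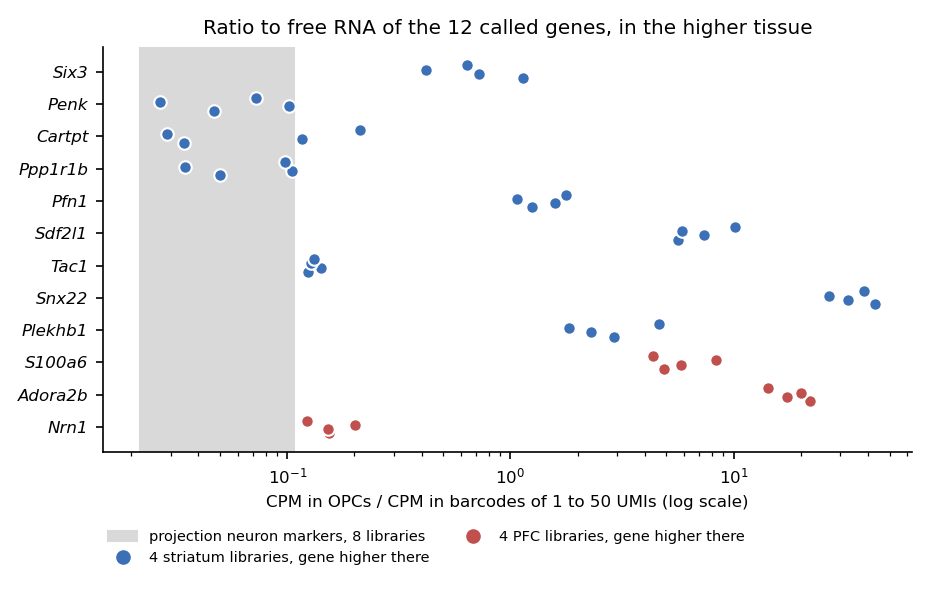
CPM in OPCs divided by CPM in barcodes of 1 to 50 UMIs (x axis, log scale) for each of the 12 called genes, with 1 point for each of the 4 libraries of the tissue where the gene was higher (blue striatum, red PFC). The grey band, 0.0218 to 0.108, spans the projection neuron markers, a list that holds *Penk* and *Ppp1r1b*; *Six3* lies between 0.416 and 1.14, and *Snx22* and *Adora2b* lie above 10.

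**Figure D3:**
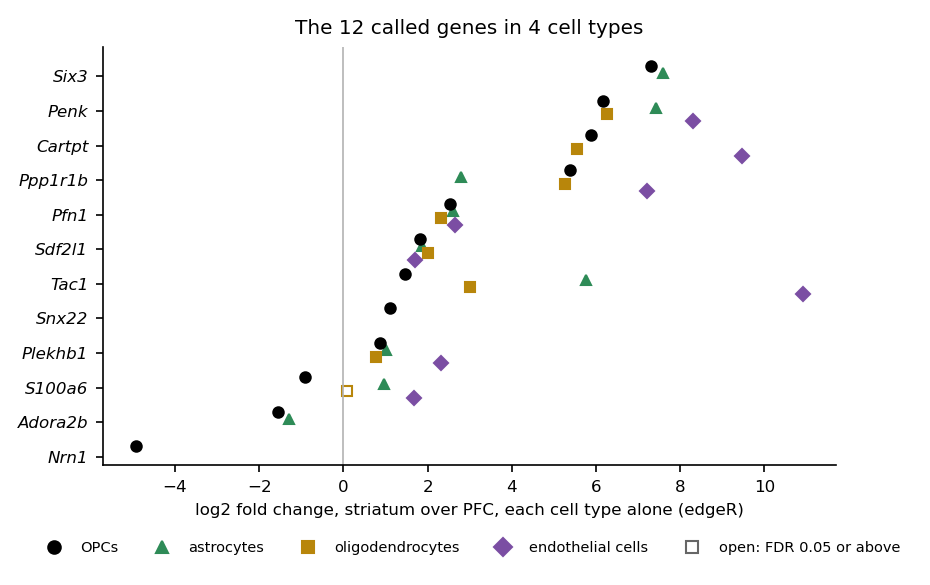
Log2 fold change of striatum over PFC (x axis) of the 12 called genes, fitted in each cell type alone, for OPCs (black circles), astrocytes (green triangles), oligodendrocytes (gold squares) and endothelial cells (purple diamonds); a type where the gene was not tested has no symbol. *Sdf2l1* and *Pfn1* lie close together in all 4 types, while *S100a6* is at -0.91 in OPCs and above 0 in the others. Fitted folds of genes at or near 0 UMIs in a tissue, such as *Six3*, depend on the prior count.

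No gene was called for a tissue difference that depended on genotype. The interaction of tissue and genotype was called for 0 of 7612 genes by edgeR and for 0 by DESeq2, and 143 genes (1.88%) had an unadjusted p under 0.05 in edgeR. *Setd1a* itself had too few UMIs in OPCs to be tested, with 3.91 to 10.5 CPM in the PFC and 6.17 to 13.9 CPM in the striatum.

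Because the PFC replicates differed from each other, the comparison was repeated without each in turn. Without both PFC libraries of replicate 2 it called 568 genes, 484 higher in the striatum and 84 higher in the PFC, including all 12 genes, and also *Vcan* (FDR = 0.0325), *Hapln1* (0.0372), *Itgb1* (0.0247), *Meox1* (0.00831), *Hes1* (0.0376), *Etv4* (3.6e-05) and *Apoe* (0.00238), but not *Ptprz1* (0.0732) or *Tnr* (0.620). The values in the later paragraphs are from all 8 libraries unless another set is named. Without both PFC libraries of replicate 1 the comparison called 66 of 8471 genes (0.779%), 34 higher in the striatum (0.401%) and 32 higher in the PFC (0.378%). All 12 genes were among them. The 2 PFC libraries left, WT 2 and Setd1a+/- 2, form 1 biological replicate, as do WT 1 and Setd1a+/- 1, so they are not independent samples of the PFC and the FDR values of both fits may be too small. Of the 66 genes, 17 were above the free RNA rule, which was applied here only to the libraries kept. Over all 4 PFC libraries, *Hapln1*, *Itgb1*, *Il1rapl1* and *Slc1a3*, which are among the 17, were not above it. In PFC WT 2 the interneuron markers summed to 1121 CPM against 183 to 297 CPM in the other PFC libraries, mostly from the neuropeptide gene *Npy* (1007 CPM). Genes of neurons (*Npy*, *Cck*, *Slc17a7*, *Stmn2* and *Snap25*) were among the calls higher in the PFC and were not above the rule, and their part in the other calls was not tested. The genes named below as called without these libraries were picked after their values had been seen.

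The OPC identity list, with 30 genes that were all tested, had 0 called genes in all 8 libraries (edgeR), where 0.158% of all genes tested were called. The libraries did not overlap for 7 members that were higher in the PFC and 1 that was higher in the striatum, against 4.3% and 3.95% of all genes tested (8.25% either way), and its median log2 fold change was -0.13 against -0.02 for all genes. The defining markers overlapped. *Pdgfra* had 1507, 831, 807 and 1020.4 CPM in the PFC and 744, 800.4, 801 and 851 CPM in the striatum (log2 fold change -0.34 ± 0.18, FDR = 0.428), with the highest value in PFC WT 1. *Cspg4* had a log2 fold change of 0.12 ± 0.23 (FDR = 0.868). The lineage factors *Olig1* (0.19 ± 0.16, FDR = 0.640), *Olig2* (0.01 ± 0.18, FDR = 0.998) and *Sox10* (0.55 ± 0.25, FDR = 0.339) were not called either. The summed level of the list was 15698 to 19592 CPM in the PFC and 11628 to 14759.6 CPM in the striatum. *Lhfpl3* (-0.67, FDR = 0.0871), *Sox6*, which holds progenitors back from differentiating (-0.67, FDR = 0.150), *Luzp2* (-0.52, FDR = 0.184) and *Rlbp1* (-0.44) were higher in every PFC than in every striatum library without passing the test, and *Emid1* (0.44) was higher in every striatum library.

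Several of the same genes build the extracellular matrix. *Vcan* encodes versican, a chondroitin sulfate proteoglycan, and had 1087, 814, 543 and 889 CPM in PFC OPCs and 489.5, 523, 446 and 376 CPM in striatal OPCs. The groups did not overlap, and the log2 fold change was -0.82 ± 0.18 (FDR = 0.0877). It was called without PFC WT 2 (FDR = 0.0328), without PFC Setd1a+/- 1 (0.00561) and without both PFC libraries of replicate 1 (-0.90, FDR = 0.0019). *Ptprz1*, a receptor phosphatase that carries chondroitin sulfate chains, had 4724, 3692, 2705 and 4031 CPM against 2444, 2356, 2526 and 2176 CPM (-0.63 ± 0.16, FDR = 0.122), and was called without the PFC libraries of replicate 1 (-0.71, FDR = 0.00157). So were *Tnr*, which encodes the matrix glycoprotein tenascin R (-0.44, FDR = 0.280 with all libraries; -0.65, FDR = 0.0319 without them), and *Hapln1*, a link protein that ties these proteoglycans to hyaluronan (-1.52 ± 0.33, FDR = 0.0832; -1.63, FDR = 0.0244). *Hapln1* was low, with 39.0, 43.0, 49.4 and 56.2 CPM in the PFC and 12.7, 17.5, 20.6 and 0 CPM in the striatum, and its ratio to free RNA in the PFC was 2.60 to 12.4. *Bcan*, which encodes brevican, lay in the other direction, with 373, 413, 338 and 445 CPM in the PFC and 566, 576, 445 and 512 CPM in the striatum, and was not called (0.44, FDR = 0.261). Of 40 matrix genes, 27 were tested and 0 were called in all libraries (0.158% over all genes tested), with a median of -0.09. Without the PFC libraries of replicate 1, 4 of 28 were called as higher in the PFC (0.378% over all genes) and the median was 0.02. When the genotypes of each replicate were summed, none of the 4 genes was called (FDR = 0.435 for *Vcan*, 0.480 for *Ptprz1*, 0.613 for *Tnr* and 0.285 for *Hapln1*). Tested alone, astrocytes were also higher in the PFC for *Hapln1* (-0.98, FDR = 0.0109) and *Ptprz1* (-0.81, FDR = 0.0271). For neither gene was the difference between OPCs and astrocytes called (FDR = 0.438 and 0.648). *Vcan* and *Tnr* were too low in astrocytes to be tested alone. *Ptprz1* was also higher in PFC oligodendrocytes (-2.63, FDR = 0.00904), with 12.9 to 68.8 CPM against 5.14 to 10.1 CPM in the striatum. In endothelial cells it was higher in the striatum (1.63, FDR = 0.0192), with 22.4 to 67.4 CPM against 7.24 to 21.0 CPM in the PFC. These levels were far below those of OPCs. The free RNA held 103 to 134 CPM of *Ptprz1* in the PFC and 52.6 to 78.6 CPM in the striatum, and its part in these 2 differences was not tested. *Vcan*, *Ptprz1* and *Tnr* are in both lists.

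**Figure D4:**
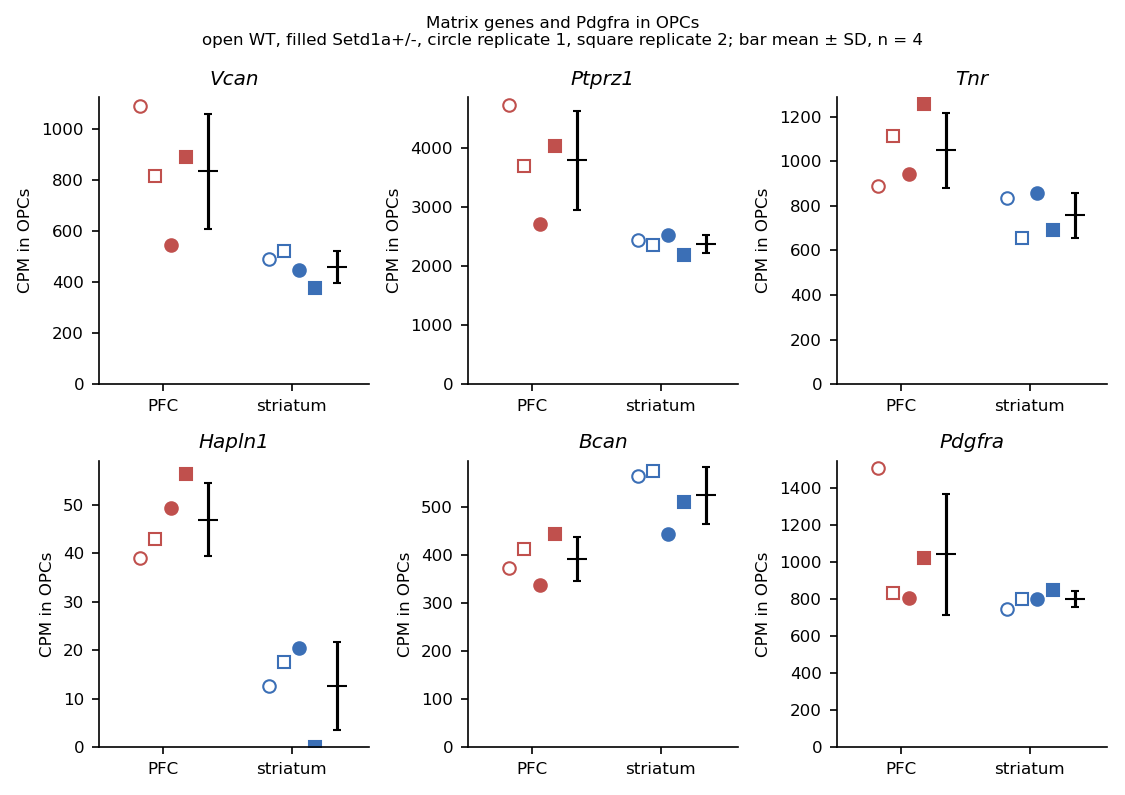
CPM of 5 matrix genes and *Pdgfra* in the OPCs of each library (y axis, linear, from 0), with the same colours and symbols as in the plot of 6 called genes and bars for the mean ± SD of 4 libraries. *Vcan*, *Ptprz1*, *Tnr* and *Hapln1* are higher in all 4 PFC libraries, *Bcan* is not, and the PFC libraries spread more widely than those of the striatum for *Vcan*, *Ptprz1* and *Pdgfra*.

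Of 52 transcription factors that pattern the forebrain, 17 could be tested. Of these, 4 were higher in every striatum library and 4 in every PFC library (3.95% and 4.3% over all genes tested). *Six3* was called, where 0.118% of all genes tested were called as higher in the striatum. Of the others, *Foxp1*, *Foxp2* and *Bcl11b*, factors of striatal projection neurons, were higher in every striatum library without passing the test. *Foxp1* had 18.0, 13.0, 25.7 and 26.8 CPM in the PFC and 40.6, 36.5, 46.3 and 86.3 CPM in the striatum (log2 fold change 1.26, FDR = 0.0871). In the striatum its OPC-to-free ratio was 0.137 to 0.357, and that of *Bcl11b* (2.41, FDR = 0.105) was at most 0.233. None of the 4 on the PFC side was called. Among them were *Lhx2* (-0.87, FDR = 0.301) and *Nr2e1* (-0.74, FDR = 0.372), factors of progenitors in the dorsal forebrain. *Meox1*, a homeobox gene that is on none of the lists and was picked after its values were seen, had 10.5, 11.7, 13.8 and 5.36 CPM in the PFC and 16.5, 62.8, 95.1 and 49.3 CPM in the striatum (2.35 ± 0.45, FDR = 0.0542), and was called without the PFC libraries of replicate 1 (2.44, FDR = 0.0201) and when the genotypes of each replicate were summed (2.44, FDR = 0.0413). Its free RNA was at most 3.56 CPM.

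Of 59 genes of growth factor, BMP, Notch, Wnt and Hedgehog signalling, 34 were tested and 0 were called (edgeR), where 0.158% of all genes tested were called. Without the PFC libraries of replicate 1, *Hes1*, a target of Notch, and *Etv4*, a factor induced by growth factor receptors, were called as higher in the striatum (2 of 34, and 0.401% over all genes); neither was called when the genotypes of each replicate were summed (FDR = 0.439 and 0.509). *Hes1* had 36.0, 24.8, 11.8 and 24.1 CPM in the PFC and 62.1, 46.7, 91.3 and 37.0 CPM in the striatum, with an FDR of 0.113 in all libraries and 0.0422 without those. *Etv4* had 24.0, 62.6, 17.8 and 56.2 CPM against 136, 123, 109 and 61.7 CPM, so that its groups overlapped, with an FDR of 0.0753 and of 0.0485. The Notch ligand *Dll1* and the Wnt feedback gene *Axin2* were low and higher in every PFC library without a call. In all, 5 members of the list were higher in every PFC library and 1 in every striatum library (4.3% and 3.95% over all genes tested).

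No adhesion or synaptic gene on the lists was called, where 0.158% of all genes tested were called. The axon guidance and adhesion list had 39 of 68 genes tested, 0 called and a median of -0.34, with 7 members higher in every PFC library and 1 in every striatum library (4.3% and 3.95% over all genes tested), and 9 of the 39 had a log2 fold change above 0. *Nlgn1*, a synaptic adhesion protein, had 181, 171, 162 and 147 CPM in the PFC and 107, 99.3, 102 and 98.6 CPM in the striatum (-0.68, FDR = 0.109), and *Cntn1* (-0.46) and *Cdh2* (-0.52) were also higher in every PFC library. *Itgb1*, the integrin beta 1 subunit, which is on none of the lists, had 244, 154, 105 and 179 CPM against 82.4, 83.3, 93.8 and 67.8 CPM (-0.99, FDR = 0.109; FDR = 0.00739 without the PFC libraries of replicate 1; FDR = 0.285 with genotypes summed). The glutamate and GABA receptor list had 21 of 38 genes tested, 0 called and a median of -0.27, and the ion channel list 28 of 41, 0 called and -0.11. The glutamate transporter gene *Slc1a3* had 369, 389.8, 338 and 418 CPM in the PFC and 213, 237, 292 and 173 CPM in the striatum (-0.67, FDR = 0.142). It is on the list of astrocyte markers and was not above the free RNA rule. Astrocytes alone had 2965 to 3844 CPM in the PFC and 1179 to 2199 CPM in the striatum (-0.92, FDR = 0.0170). Oligodendrocytes alone showed no call (0.16, FDR = 0.634). The potassium channel gene *Kcnk3* lay the other way, with 4.50, 11.7, 1.97 and 8.03 CPM against 29.2, 20.4, 27.0 and 18.5 CPM (1.87, FDR = 0.106).

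With all libraries, no gene on the lists of differentiation, division and metabolism was called, where 0.158% of all genes tested were called. The committed progenitor list had 14 of 20 genes tested and a median of 0.01, the myelin list 10 of 20 and 0.07, the cell cycle list 19 of 38 and -0.03, the cholesterol synthesis list 22 of 26 and -0.18, and the interferon and antigen presentation list 9 of 23 and -0.16. The 10 tested myelin genes all overlapped between tissues, where 8.25% of all genes tested did not. The committed progenitor, cell cycle, cholesterol synthesis and interferon lists each had 1 member higher in every PFC library and 0 in every striatum library. The shares over all genes tested were 4.3% and 3.95%. Without the PFC libraries of replicate 1, the median of the myelin list was -0.25 and that of the interferon list 0.12, and *Apod*, a lipid-binding protein on the myelin list, was called as higher in the PFC (-3.21, FDR = 0.00071). It had 61.5, 566, 9.87 and 13.4 CPM in the PFC and 16.5, 35.1, 41.1 and 6.17 CPM in the striatum, so that its level in the PFC rested on WT 2. *Apoe*, the lipid carrier, had 1980.4, 2751, 1812 and 1762 CPM in the PFC and 4532, 5489, 3366 and 2219.5 CPM in the striatum (0.89, FDR = 0.0542; 0.75, FDR = 0.00807 without the PFC libraries of replicate 1; FDR = 0.285 with genotypes summed).

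Genes that tissue dissociation can induce were counted as well. Of 45 such genes, 26 were tested and 0 were called (0.158% over all genes tested), with a median of 0.13. Of them, 3 were higher in every striatum library (*Jund*, *Junb* and *Hsp90ab1*), against 3.95% of all genes tested, and none of the 3 was above the free RNA rule. *Jund* had 18 UMIs in PFC and 56 in striatal OPCs, at an OPC-to-free ratio of 0.162 to 0.409 in the striatum. *Junb* had 19 and 42 UMIs at a ratio of 0.0620 to 0.0918, within that of the projection neuron markers there (0.0405 to 0.108). *Hsp90ab1*, an abundant chaperone, had 1373, 1378, 1236 and 1286 CPM in the PFC and 2455, 1597, 2648 and 1597 CPM in the striatum (0.69, FDR = 0.135), with the higher pair in replicate 1. The summed level of the list was 5203 to 6029.6 CPM in the PFC and 8809, 6031, 9761 and 5469 CPM in the striatum. *Sdf2l1* was also highest in the striatum libraries of replicate 1, and the part of the digestion in it was not tested.

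**Figure D5:**
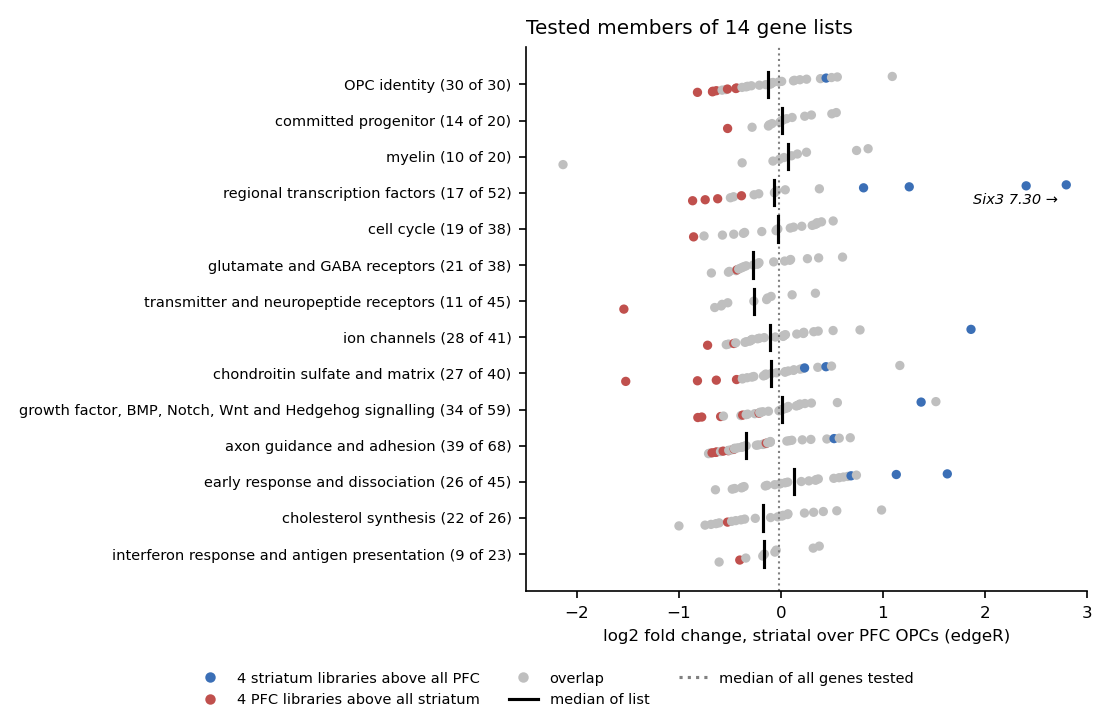
Log2 fold change of striatal over PFC OPCs (x axis) of each tested member of 14 gene lists (rows, with the number tested of the number listed), in blue where the 4 striatum libraries lie above all PFC libraries, red for the reverse and grey where they overlap, with black bars for list medians and a dotted line for the median of all genes (-0.02). Most members lie within 1 of 0 and overlap; *Six3* lies off the scale at a fitted value that depends on the prior count.

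Over the 14 lists together, 290 of 527 genes were tested and 2 were called (*Six3* and *Adora2b*), where 0.158% of all genes tested were called. Of the 290, 13 were higher in every striatum library and 32 in every PFC library, where the shares over all genes tested were 3.95% and 4.3%. Genes on more than 1 list are counted once.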

How the data were processed

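Counts of UMIs per gene and barcode came from Cell Ranger 3.0.2, run by the authors. As deposited, these counts are whole and not normalized, and they include empty droplets. Per the labels, Seurat 3.2.0 and mm10 were also used. The deposited annotation gave each cell's library and cell type. Coordinates are from the GENCODE annotation of GRCm38, matched by gene ID. Gene-by-cell tables of the authors without gene names were not used here. Removal of doublets is not given in the sources used here, and no caller was run.

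UMIs were summed over the OPCs of each library and tested with edgeR 4.0.16 (quasi-likelihood, TMM, genes filtered by filterByExpr at a minimum of 10 counts, FDR after Benjamini and Hochberg), with tissue and genotype as terms. Genes were called at an FDR under 0.05 and a fold above 1.5. FDR values are adjusted over all genes tested. Positive log2 fold changes are higher in the striatum. Differences between cell types were tested with library as block. Single values per library were compared with exact permutation tests (Python 3.11.15, SciPy 1.17.1). Alternatives included DESeq2 1.42.0 under R 4.3.3, other scalings and filters, fewer libraries, cells thinned to 1000 UMIs, OPCs without the 5% of highest UMIs, and subtraction of free RNA. The tissue fit and the fit against astrocytes were also run on simulated counts, whose outcome is not given here.

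Named were the called genes of largest fold, at most 12 in each direction, with no overlap between tissues, a mean of at least 20 CPM and an OPC-to-free ratio at least 2 times the highest of the other cell type lists; at most 2 called members of each list and direction; *Pdgfra*, *Cspg4*, *Olig1*, *Olig2*, *Sox10*, *Vcan* and *Setd1a*; and examples of neuronal genes. A further gene of this rule is not reported here. The members, lists and tests were chosen with earlier results of these data known. All other named genes, including *Plekhb1*, *Pfn1*, *Cartpt* and *Nrn1*, were chosen after their values were seen.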

Additional observations from a re-analysis of the deposited data

Results flagged for a closer look

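Among 45 groups of 4 OPC values tested for a single value far from the other 3, 3 passed Dixon's 95% limit, where chance gives about 1 in 20. *S100a6* had 665 CPM in PFC Setd1a+/- 1 against 387 to 433 CPM in the other PFC libraries. *Tac1* had 205 CPM in striatum WT 1 against 179 to 183 CPM in the other striatum libraries. *Cartpt* had 2.68 CPM in PFC Setd1a+/- 2, which is 1 UMI, against 0 in the other PFC libraries.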

How the results depend on the processing

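All 12 genes remained called under DESeq2, the other scalings, no filter on low counts, no genotype covariate, with the replicate block and without either PFC replicate. Of them, 5 remained without striatum replicate 1 (*Six3*, *Nrn1* and *Sdf2l1* among those lost), 6 without striatum replicate 2, 3 with genotypes summed, 1 in WT and 0 in Setd1a+/- libraries, 8 in thinned cells (3 not tested) and 6 to 12 with 1 library left out. Numbers of called genes are given as striatum and PFC. The count rose under DESeq2 (26 and 7), with no filter (266 and 85), with no genotype covariate (22 and 5), without PFC replicate 1 (34 and 32), without PFC replicate 2 (484 and 84), and without PFC replicate 1 and striatum Setd1a+/- 2 together (62 and 47, added after seeing the data). With genotypes summed it was 3 and 1, in WT libraries alone 1 and 0, in Setd1a+/- libraries alone 0 and 0 (edgeR, where 287 genes had an unadjusted p under 0.05), without striatum replicate 1 it was 11 and 0, and without striatum replicate 2 it was 7 and 2. Leaving out 1 library gave 5 to 100 and 1 to 30, most without PFC WT 2 and fewest without PFC WT 1. Subtracting free RNA at the ratio of the projection neurons gave 3 and 0 (added after seeing the data), and at the highest neuronal ratio 592 and 99 of 3005 genes, with a median of 0.588, where *Tac1* turned to -8.25. The replicate number as a block gave 62 and 15. Deviations of same-numbered libraries correlated by 0.14 between the WT and -0.01 between the Setd1a+/- libraries of the tissues. Within a tissue they correlated by 0.40 (PFC) and 0.35 (striatum), and across tissue and genotype by 0.22 and -0.11. These correlations cannot tell whether same-numbered libraries of the 2 tissues share mice or a batch, and the main fit has no replicate term. The causes were not tested.

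Genes whose tissue difference differed from that of astrocytes (428 of 7825, 5.47%), oligodendrocytes (131 of 8798, 1.49%) and endothelial cells (563 of 9842, 5.72%) numbered 158, 30 and 235 in WT, 143, 38 and 257 in Setd1a+/- libraries, 73, 73 and 248 in thinned cells, and 220 to 523, 96 to 153 and 356 to 586 with 1 library left out. The genotype interaction called 7 genes with no filter and 0 to 1 with 1 library left out.

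The difference in OPC share was -6.28 to -3.84 percentage points with 1 library left out (exact permutation p = 0.0571, the smallest then possible) and -5.69 without PFC replicate 1 (exact p = 0.133). Within the lineage it was 0.492. The difference in median genes was 2.5 in thinned cells and -96.3 to -6.58 with 1 library left out, and that in median UMIs -207 to -32.7. Depth limits genes of low level, as 3 UMIs are up to 18.5 CPM.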
